A study of Mus musculus with 6 samples.

Results

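Transcripts of small nucleolar RNAs (snoRNAs), microRNAs and the genes that host them were measured in C17.2 cells, an established mouse line of multipotent neural stem cells (strain label CD1 x C57BL/6). Members were the rows of the deposited transcript table whose gene name begins with Snora, Snord, Snhg, Scarna, Rnu or Mirlet, or with Mir and a digit. The rule found 69 of the 15113 rows, under 54 gene names at 51 of the 7171 loci. These were 22 rows of 8 Snhg genes, 3 rows of 2 microRNA host genes, 20 C/D snoRNA rows, 12 H/ACA snoRNA rows and 12 microRNA rows. No Scarna, Rnu or Mirlet row was found.

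The labels give 3 groups of 2 replicates. Heme-treated cells received heme, at a dose, for a time and in a medium that the sources used here do not state. Cells under neural induction were kept in Knockout DMEM with GlutaMAX, N2 supplement and 10 ng/ml of the neurotrophin BDNF, for a time also not stated. Control cells stayed in DMEM/F12 growth medium with 10% fetal bovine serum, so induction changed the serum and the base medium together with BDNF. The TruSeq RNA kit was used on 1 ug of total RNA per library. The title of the study concerns erythroblasts and neurogenesis, and the comparisons ask what heme and induction each do to these cells. All groups come from 1 line, and nothing in the labels says that replicates were separate cultures, so p-values measure the spread between these samples only.

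C/D snoRNAs guide ribose methylation and H/ACA snoRNAs guide pseudouridylation of ribosomal and spliceosomal RNA, and each is bound by its own set of proteins in the nucleolus. Most vertebrate snoRNAs are cut from introns of host genes, many of which encode ribosomal proteins, while the Snhg hosts make spliced RNAs with little coding capacity that are often removed by nonsense-mediated decay. MicroRNAs are cut from hairpins in longer transcripts and pair with target RNAs through a seed near the 5′ end. The rows here span whole annotated snoRNAs or microRNA hairpins, and a library of this kind does not separate the mature small RNA from the longer transcript that contains it.

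The snoRNAs below are those with the highest levels and those near 0 in both induction libraries but in neither control. Sequences are from GENCODE M21 (GRCm38), and capitals mark a C box (TGATGA, searched in the first 20 bases), a D box (CTGA, in the last 20 bases) or the ACA letters 3 bases before the 3′ end. Each was searched on the strand of the RNA only.
Snora24 (chr3:123507937-123508066, minus strand): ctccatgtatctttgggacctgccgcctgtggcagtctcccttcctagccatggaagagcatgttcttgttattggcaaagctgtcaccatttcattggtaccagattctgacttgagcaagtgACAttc
Snord57 (chr2:130278016-130278087, plus strand): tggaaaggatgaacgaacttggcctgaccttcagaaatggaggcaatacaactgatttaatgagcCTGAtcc
Snora41 (chr1:63179004-63179135, plus strand): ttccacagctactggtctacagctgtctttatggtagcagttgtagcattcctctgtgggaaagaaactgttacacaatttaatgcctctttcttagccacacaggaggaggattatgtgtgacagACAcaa
Snord16a (chr9:64175423-64175521, plus strand): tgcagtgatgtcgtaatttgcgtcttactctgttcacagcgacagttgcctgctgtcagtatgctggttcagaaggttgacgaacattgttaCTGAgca
Snord78 (chr1:161036984-161037049, plus strand): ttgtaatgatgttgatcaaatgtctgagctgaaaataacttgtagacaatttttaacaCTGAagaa
Snora2b (chr15:98526346-98526482, minus strand): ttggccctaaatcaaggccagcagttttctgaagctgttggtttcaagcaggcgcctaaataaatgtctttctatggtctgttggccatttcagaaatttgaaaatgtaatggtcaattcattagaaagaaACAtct
The C and D box letters were both present in 12 of 20 C/D rows. They were present in 20.5% of 1507 GENCODE snoRNA transcripts, all classes together, and 0.05% of 2202 GENCODE miRNA transcripts. The ACA letters stood in that place in 11 of 12 H/ACA rows, against 18.31% and 3.27% of the same GENCODE sets. The snoRNA set mixes C/D and H/ACA, so its shares are not rates for a single class. Snord57, Snord16a and Snord78 show D box letters without that exact C box, and a match or a missing match describes these letters only.

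The mature microRNAs below belong to the 2 highest microRNA rows, to 2 rows that are nearly absent from some libraries, and to the hosts Mir22hg and Mir155hg. Sequences are from RefSeq (GRCm38.p6), and capitals mark the seed, bases 2 to 8.
mmu-miR-6236 (chr9:110281353-110281371, plus strand): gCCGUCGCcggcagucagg
mmu-miR-703 (chr5:98475616-98475636, minus strand): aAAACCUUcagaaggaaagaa
mmu-miR-8114 (chr1:153899989-153900009, plus strand): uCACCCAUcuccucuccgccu
mmu-miR-8112 (chr6:71271745-71271764, plus strand): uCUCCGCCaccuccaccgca
mmu-miR-22-3p (chr11:75463772-75463793, plus strand): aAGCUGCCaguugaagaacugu
mmu-miR-155-5p (chr16:84714143-84714165, plus strand): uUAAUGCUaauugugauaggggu
All 12 microRNA members matched the RefSeq table. Their 17 mature sequences and the 4 of miR-22 and miR-155 have 21 distinct seeds, so no pair of members shares a seed.

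Levels are FPKM, which divide fragments by transcript length and library size, so they are already per length. Each of the 5 libraries used holds 4.14 to 4.56 gigabases mapped, and members took 0.174% to 0.227% of the listed FPKM. The second heme column is the first times 1.25 to 1.5 in every row above 0, with the same 1150 rows at 0, so both were counted as 1 sample and the first was used. All heme values therefore have n = 1. Of the fixed markers, 5 of 10 neural progenitor genes were listed, with sums of 793 to 924 FPKM. For neurons 2 of 8 were listed (21.8 to 32.6 FPKM), for oligodendrocytes 2 of 5 (88.0 to 107), for fibroblast or mesenchymal cells 4 of 5 (1357 to 2140), and for astrocytes and erythroid cells 0 of 4 and 0 of 6. Dcx, Rbfox3, Gfap, Mbp and the globins were not among the listed genes.

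No member passed the test in either comparison. Limma on log2(FPKM + 1), adjusted over the 13737 transcripts tested (threshold 0.05), called 0 of the 67 members tested for heme against control, where 0.0728% of all transcripts were called. It also called 0 of 67 for neural induction against control, where 0.00728% were called. At an unadjusted p under 0.05 there were 2 members for heme and 5 for induction, which is 2.99% and 7.46% of the members against 4.95% and 4.98% of all transcripts. The median member log2 fold change was -0.05 for heme and -0.03 for induction, against 0.0 and 0.02 over all transcripts. Summed by locus, 0 of 50 member loci were called in either comparison, where 0.0426% and 0.0142% of loci were called. The fit has 2 residual degrees of freedom, so a missed call does not show that levels were alike, and in bulk RNA fewer cells of a type cannot be told apart from less RNA per cell.

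Both induction libraries lay above both controls in 8 of 67 members and below both in 8, against 17.2% and 13.9% of all transcripts, and overlapped the controls in the other 51. Of these 16 members, 4 are the 4 Snhg3 rows. The heme and induction comparisons share their controls, so a member with unusual controls differs in both.

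Snhg3, the host of the H/ACA snoRNA Snora73, was the host gene whose summed level differed most from control under induction. No Snora73 row is among the members. Summed over its 4 rows, Snhg3 was at 20.8 FPKM in the heme library, 8.79 and 8.26 FPKM in the induction libraries, and 26.01 and 24.4 FPKM in the controls. Both induction libraries were thus far below either control, with no overlap, and the heme library was just below both controls. The induction mean was 8.53 ± 0.376 FPKM and the control mean 25.2 ± 1.16 FPKM (SD, n = 2 each). The log2 fold change was -1.46 ± 0.14 (SE) for induction, with adjusted p = 0.352 in limma over 9825 gene sums, and -0.26 ± 0.18 for heme with adjusted p = 0.984. Neither passed the threshold, which 0.122% of gene sums passed for heme and 0.0% for induction. Summing by gene name was added after the data were seen.

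**Figure D1:**
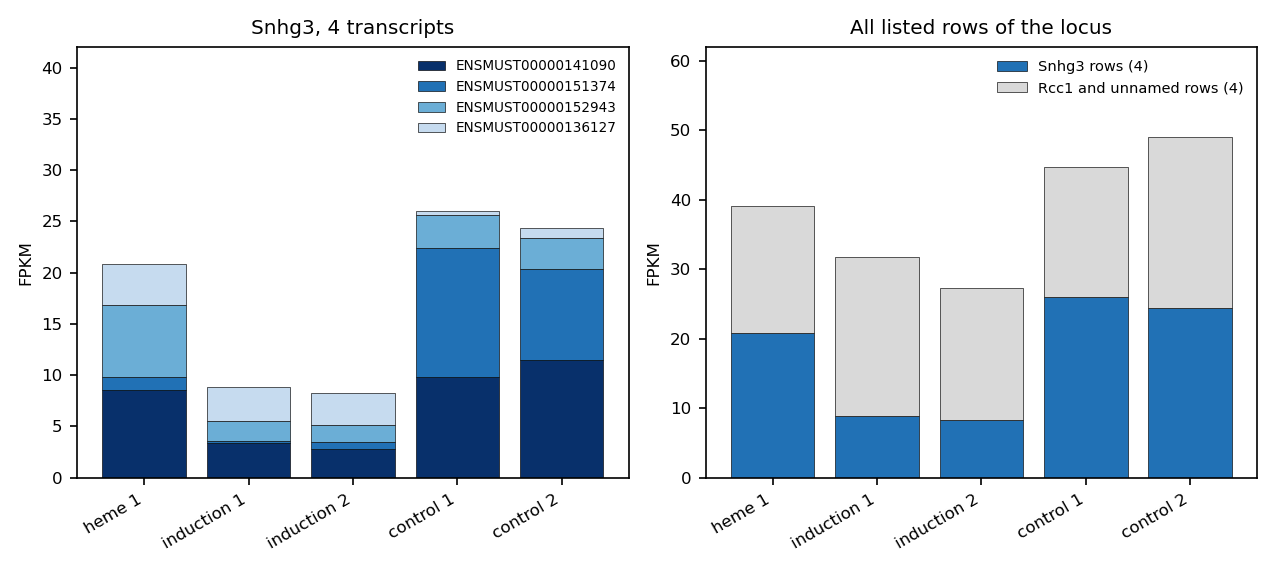
FPKM (vertical axes, from 0) at the Snhg3 locus in the heme, induction and control libraries, 1 bar per library, with the 4 Snhg3 transcripts stacked on the left and all 8 listed rows of the locus stacked on the right. The Snhg3 total is 8.26 to 8.79 FPKM in the induction libraries against 24.4 to 26.0 in the controls, while the other rows of the locus are at 18.3 to 24.6 FPKM in all 5.

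The 4 Snhg3 transcripts (chromosome 4, minus strand, 132351933 to 132353686 at most, GRCm38) did not move alike. ENSMUST00000151374 was at 1.19 FPKM in the heme library, 0.216 and 0.672 FPKM in the induction libraries, and 12.6 and 8.96 FPKM in the controls. Every treated library was thus far below both controls. Its log2 fold change was -2.41 ± 0.66 for heme (adjusted p = 0.807) and -3.03 ± 0.54 for induction (adjusted p = 0.464), the smallest p of any member in each comparison. ENSMUST00000141090 was at 8.59 FPKM in the heme library, 3.37 and 2.82 FPKM under induction, and 9.84 and 11.4 FPKM in controls. It was low in the induction libraries, with the heme library close to the controls, and its log2 fold change for induction was -1.51 ± 0.33 (adjusted p = 0.588).

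ENSMUST00000136127 went the other way, at 4.04 FPKM in the heme library, 3.30 and 3.12 FPKM under induction, and 0.360 and 0.995 FPKM in controls. All 3 treated libraries lay above both controls, with a log2 fold change of 1.61 ± 0.67 for heme (adjusted p = 0.978). ENSMUST00000152943 was at 7.02 FPKM in the heme library, 1.91 and 1.64 FPKM under induction, and 3.25 and 2.99 FPKM in controls, so heme and induction libraries fell on opposite sides of the controls. As a share of the Snhg3 sum, ENSMUST00000151374 took 5.73% in the heme library and 2.46% and 8.13% under induction, against 48.3% and 36.8% in controls. ENSMUST00000136127 took 19.4% in the heme library and 37.5% and 37.8% under induction, against 1.38% and 4.08%.

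The locus holds 4 more listed rows, of Rcc1, the nuclear exchange factor for the GTPase Ran, and of unnamed transcripts. These summed to 18.3 FPKM in the heme library, 23.0 and 19.1 FPKM under induction, and 18.7 and 24.6 FPKM in controls, which overlap. The unnamed transcripts start at 132331923 and end between 132353633 and 132353686, so they span the Snhg3 interval. Whether they share reads with Snhg3 was not tested, so this sum is not a separate neighbour. Unnamed rows at 10.1 and 2.37 FPKM in induction replicate 1 were at 0 in every other library. Snhg3 took 53.2% of the locus in the heme library and 27.7% and 30.2% under induction, against 58.1% and 49.7% in controls. The locus sum was 39.2 FPKM in the heme library, 31.8 and 27.3 FPKM under induction, and 44.7 and 49.0 FPKM in controls. Its log2 fold change was -0.25 ± 0.14 for heme and -0.65 ± 0.11 for induction (adjusted p = 0.998 and 0.93). An unnamed transcript annotated on the opposite strand over the same bases (132351933 to 132353600) was at 7.44 FPKM in the heme library, 8.34 and 9.45 FPKM under induction, and 6.69 and 10.3 FPKM in controls. Whether counting used strand is not given, so reads of this pair may not be separable.

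**Figure D2:**
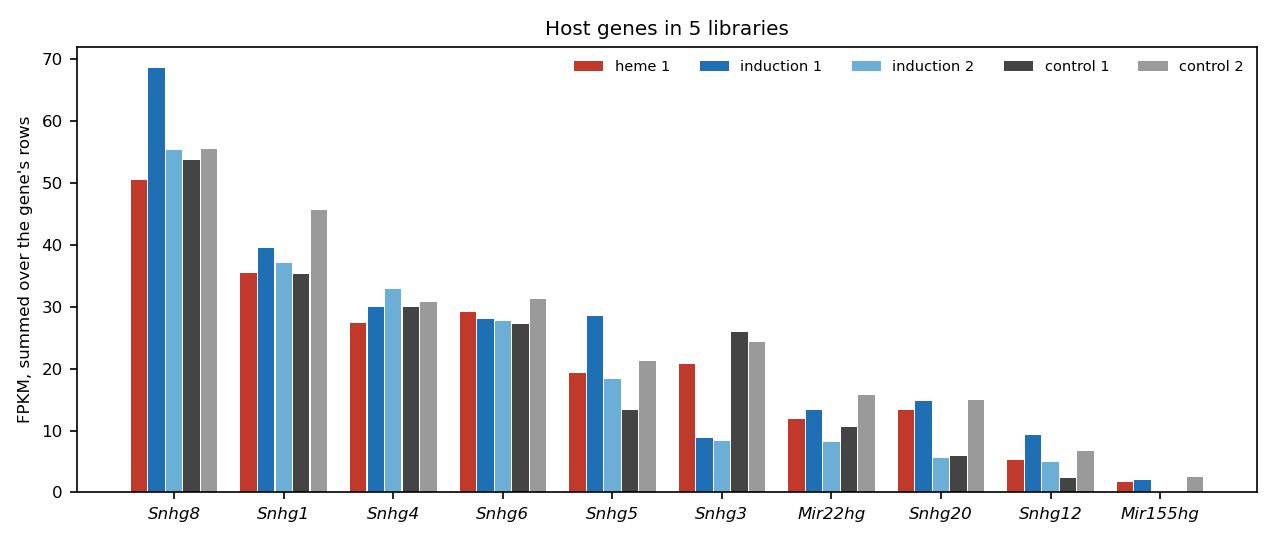
FPKM summed over the rows of each of the 10 host genes (vertical axis, from 0), with 1 bar per library in the order heme, induction 1 and 2, control 1 and 2. Snhg3 is the host with both induction bars far below both control bars, and the other hosts' induction and control bars overlap.

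Snora24, an H/ACA snoRNA that guides a small-subunit rRNA modification, is encoded in Snhg8 and was near 0 outside the controls. It was at 0.0925 FPKM in the heme library, 0.0821 and 0.0991 FPKM under induction, and 3.90 and 4.63 FPKM in controls. All 3 treated libraries were thus under 0.1 FPKM while both controls were above 3 FPKM. The log2 fold change on the log2(FPKM + 1) scale was -2.27 ± 0.63 for heme and -2.27 ± 0.52 for induction (adjusted p = 0.828 and 0.614). The values rest on 51.7 sequenced bases in the heme library and 48.6 and 53.4 bases under induction, against 2253 and 2622 bases in controls. The Snhg8 sum showed no such split, and all 130 bases lie in an exon of retained-intron transcripts of Snhg8.

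Snord57, a C/D snoRNA within the snoRNP protein gene Nop56, was at 0.0196 FPKM in the heme library, 0.0249 and 0.0303 FPKM under induction, and 1.70 and 5.69 FPKM in controls. The treated libraries were again near 0, but the controls differed from each other more than 3-fold. Log2 fold changes were -2.06 ± 0.84 for heme and -2.05 ± 0.68 for induction (adjusted p = 0.978 and 0.936). The listed rows of the Nop56 locus, unnamed ones included and small RNA rows left out, were summed. They stayed at 104 FPKM in the heme library, 118 and 106 FPKM under induction, and 101 and 121 FPKM in controls. Snora41, in an intron of the elongation factor gene Eef1b2, was at 1.12 FPKM in the heme library, 0.00528 and 0.00462 FPKM under induction, and 1.77 and 3.52 FPKM in controls. It was near 0 in the induction libraries only, with a log2 fold change of -1.82 ± 0.57 (adjusted p = 0.868) on 2.5 to 3.2 sequenced bases there. Snora41 shares 49 of its 103 runs of 30 bases with a predicted snoRNA gene on chromosome 3.

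In other rows the near-zero values followed no treatment. Snora70, in the ribosomal protein gene Rpl10, was at 3.03 FPKM in the heme library, 4.85 and 1.92 FPKM under induction, and 0.00372 and 2.20 FPKM in controls, where only control replicate 1 was near 0. Snord68, in Rpl13, was at 2.32 FPKM in the heme library, 0.822 and 0.00902 FPKM under induction, and 0.554 and 2.25 FPKM in controls. In all, 10 of the 69 rows have fewer than 50 sequenced bases in at least 1 library. Snord1b and Snord17 did not reach 1 FPKM in at least 2 libraries and were not tested. Snord1b was at 2.35 FPKM in control replicate 2 and under 0.16 elsewhere, and Snord17 at 3.08 FPKM in induction replicate 2 and under 0.74 elsewhere.

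The most regular pattern among the 42 small RNA rows tested ran between replicates of the same group. Control replicate 2 was the highest library in 22 of 42 rows (all transcripts, 24.4%) and control replicate 1 the lowest in 20 (19.2%). Control replicate 2 exceeded control replicate 1 in 39 of 42 rows, by a median of 0.64 log2 units, a factor of 1.55. Over all transcripts tested the median difference was 0.0, with 49.8% higher. Among 227 other transcripts under 300 bases it was 0.1, with 60.8% higher. The median was 0.79 for C/D rows (17 of 18 higher), 0.39 for H/ACA rows (12 of 12) and 0.21 for microRNA rows (10 of 12).

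Induction replicate 1 exceeded induction replicate 2 in 33 of 42 small RNA rows, by a median of 0.3 log2 units, with 50.6% of all transcripts higher. The heme library exceeded control replicate 1 in 28 of 42 rows and control replicate 2 in 8. It lay between the 2 controls in 20 of the 42 rows, above both in 8 and below both in 14. The 32 tested rows of GENCODE snoRNA, scaRNA or snRNA genes outside the name rule, chosen after the pattern was seen, gave 30 of 32 higher in control replicate 2 than 1 (median 0.63) and 28 of 32 higher in induction replicate 1 than 2 (median 0.44). None of these 32 separated induction from control, where 17.2% of all transcripts lay above both controls in both induction libraries and 13.9% below. Control replicate 2 also had the lowest sum in all 4 marker lists with listed genes. Its fibroblast or mesenchymal sum was 1357 FPKM against 1730 to 2140 in the others, its progenitor sum 793 against 904 to 924, its neuron sum 21.8 against 23.2 to 32.6, and its oligodendrocyte sum 88.0 against 96.1 to 107. Single progenitor genes did not all share this. Vim was at 663 FPKM in control replicate 2 against 782 to 798 in the others, and Sox2 at 13.6 against 18.6 to 19.8. Nes went the other way, at 93.9 FPKM against 75.2 to 83.4. The part of these markers in the pattern was not tested.

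**Figure D3:**
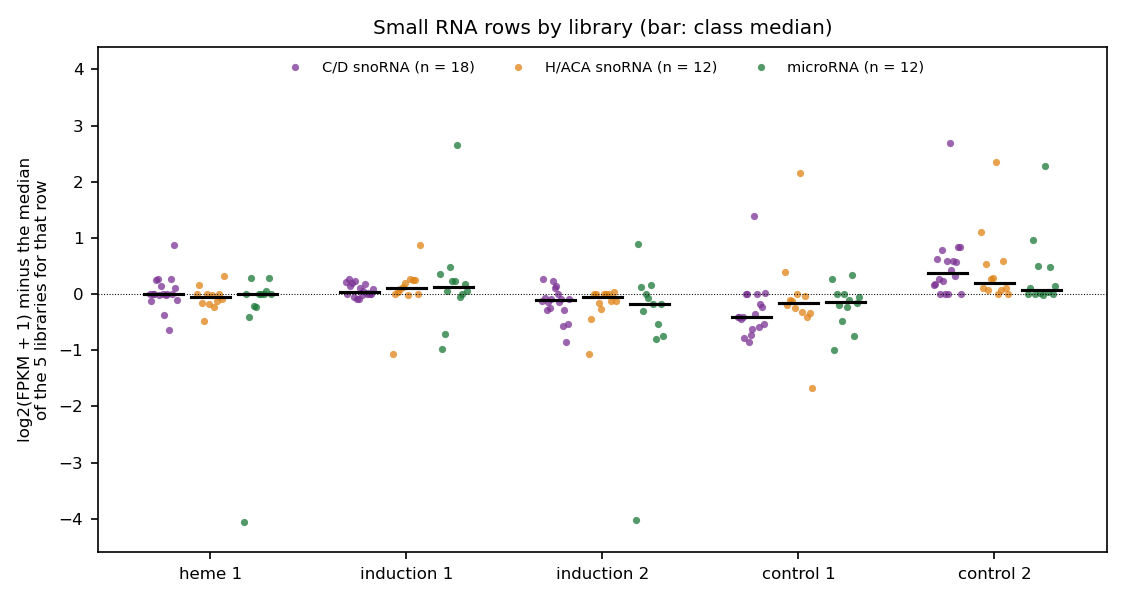
Log2(FPKM + 1) of each small RNA row minus the median of its 5 libraries (vertical axis), by library, with 1 point per row and a black bar at each class median. C/D medians are -0.4 in control replicate 1 and 0.38 in control replicate 2, with the heme library at 0.0 and the induction libraries at 0.04 and -0.11 between them.

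The summed hosts of these rows did not share the size of this shift, while single host gene rows showed part of it. Among the 25 member rows of Snhg and microRNA host genes, control replicate 2 exceeded control replicate 1 in 18, by a median of 0.37 log2 units. For the 28 listed hosts of small RNA rows the median difference of control replicate 2 over control replicate 1 was 0.1, although 23 of 28 were higher. As a share of the host level, the small RNA row was higher in control replicate 2 in 30 of 34 pairs, by a median of 0.67 log2 units. Across the 5 libraries the small RNA row had a wider log2 range than its host in 33 of 34 pairs. Median ranges were 0.95 for these small RNA rows, 0.23 for their hosts and 1.29 for all transcripts tested. The exception was Snora61, whose range was 0.59 against 1.62 for Snhg12. Host levels are sums over the listed rows of the host's locus, unnamed ones included and small RNA rows left out. They are mostly far above the small RNA level. How far level and summing account for the narrower host ranges was not tested.

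Of the 44 small RNA rows, each of 1 exon and 63 to 238 bases long, 39 lie on the strand of an annotated GENCODE host. Of these, 22 lie inside a host exon, 16 of them only in retained-intron transcripts, 14 in an intron, and 3 partly in an exon. The other 5 (Snord104, Snora57, Mir5136, Mir703 and Mir6236) had no host found on their strand. Small RNA genes and predicted genes with names in Gm were left out of this search. Ribosomal protein genes hosted 13 rows in 10 genes, among them Rpl4, Rpl13a, Rpl3, Rps12 and Rplp2. With 34 rows that have a listed host, the small RNA row stood at a median of 3.16% of its host level. The range ran from 0.198% for Snord68 in Rpl13 to 156% for Snora61 in Snhg12, and 23 of 34 were under 10%.

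**Figure D4:**
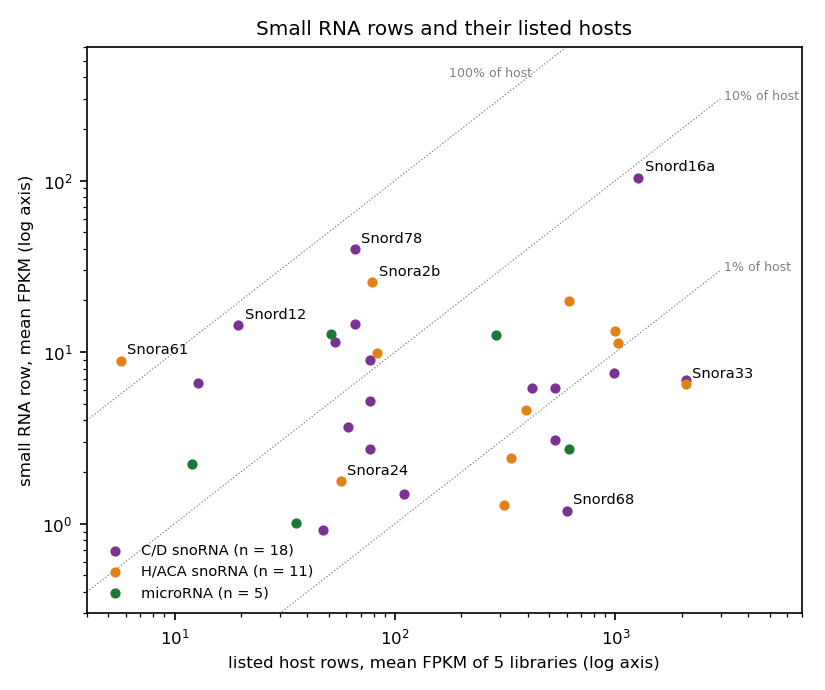
Mean FPKM over 5 libraries of 34 small RNA rows (vertical log axis) against the summed FPKM of the listed rows of their host's locus, small RNA rows left out (horizontal log axis), coloured by class. Dotted lines mark 100%, 10% and 1% of the host level, and only Snora61 lies above the first.

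Among the 5 highest C/D rows, none separated induction from control. Snord16a, in Rpl4, was at 97.3 FPKM in the heme library, 112 and 98.6 FPKM under induction, and 107 and 105 FPKM in controls, 8.18% of the Rpl4 level. Snord78 and Snord80 share Gas5, a growth-arrest host RNA. Snord78 was at 39.97 FPKM in the heme library, 46.7 and 36.7 FPKM under induction, and 30.01 and 45.1 FPKM in controls. Snord80 was at 13.3 FPKM in the heme library, 14.6 and 17.7 FPKM under induction, and 10.8 and 16.7 FPKM in controls. In all of these the induction and control libraries overlapped.

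Snord104 was at 21.7 FPKM in the heme library, 25.9 and 20.6 FPKM under induction, and 21.9 and 26.1 FPKM in controls. Snord12, within the noncoding host Zfas1, was at 14.1 FPKM in the heme library, 14.8 and 12.7 FPKM under induction, and 10.8 and 19.4 FPKM in controls. Both overlapped between induction and control, and Snord12 had its lowest and highest values in the 2 controls. Snord93 was at 3.69 FPKM in the heme library, 7.25 and 5.80 FPKM under induction, and 6.26 and 9.97 FPKM in controls, with a log2 fold change for heme of -0.93 ± 0.48 (adjusted p = 0.978). The heme library was the lowest of the 5 for this row. Snord19, in the nucleolar GTPase gene Gnl3, was at 13.4 FPKM in the heme library, 11.2 and 14.2 FPKM under induction, and 6.22 and 12.01 FPKM in controls. Its log2 fold change for induction was 0.49 ± 0.38 (adjusted p = 0.938), and the libraries overlapped.

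**Figure D5:**
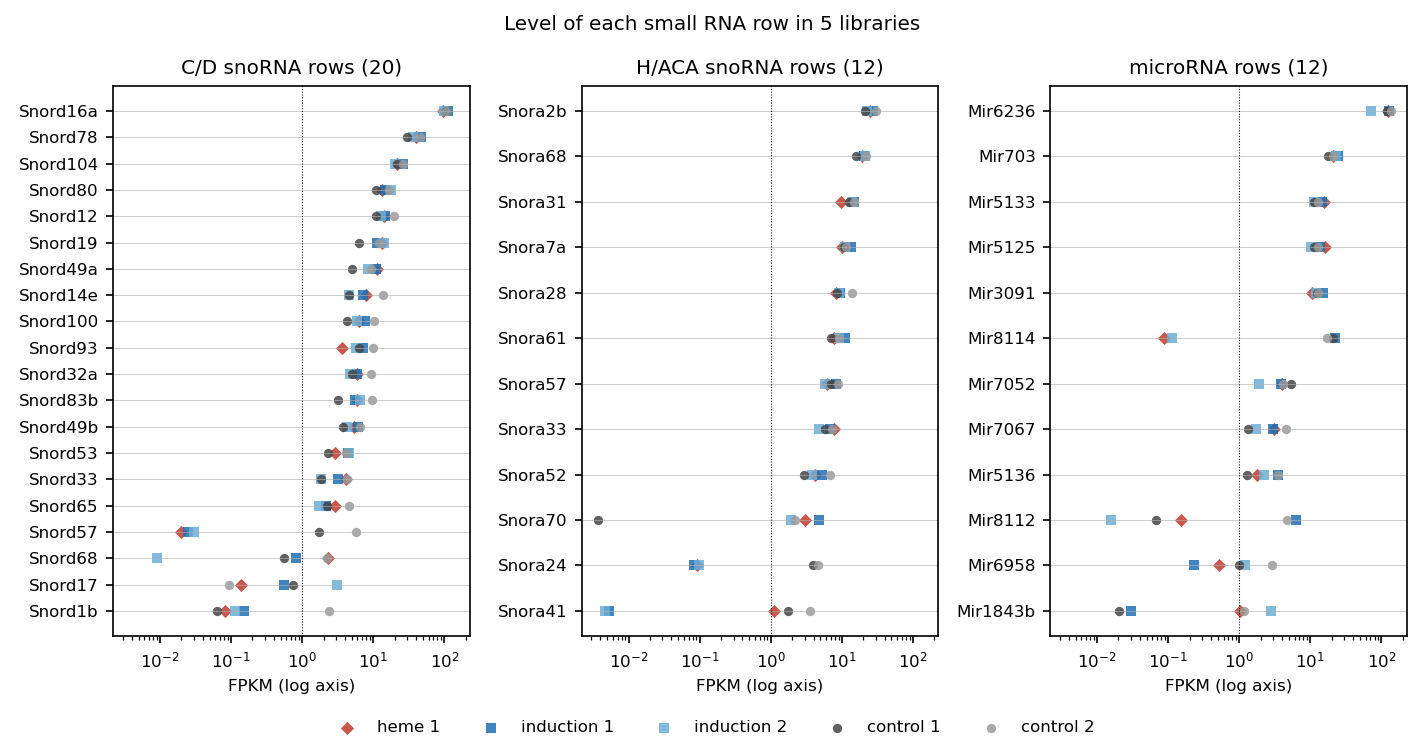
FPKM (horizontal log axis) of each of the 44 small RNA rows in the heme, induction and control libraries, 1 symbol per library, by class and sorted by mean, with a dotted line at 1 FPKM. The range over the libraries exceeds 1 on the log2(FPKM + 1) scale in 12 of 29 rows alone in their locus and 8 of 15 rows sharing one. Snora24 and Snord57 show the heme and both induction symbols near 0 with both controls above 1 FPKM.

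Of the H/ACA rows, Snora2b, in Kansl2, was the highest on average. It was at 25.2 FPKM in the heme library, 27.8 and 22.6 FPKM under induction, and 21.02 and 30.7 FPKM in controls. The induction and control libraries overlapped. Snora31, in the intron of Tpt1, was at 9.81 FPKM in the heme library, 14.99 and 14.03 FPKM under induction, and 12.8 and 14.9 FPKM in controls. The heme library was the lowest, with a log2 fold change of -0.45 ± 0.24 (adjusted p = 0.978). Snora7a, in Rpl32, was at 9.99 FPKM in the heme library, 13.3 and 10.9 FPKM under induction, and 10.6 and 11.6 FPKM in controls. Snora28, in the initiation factor gene Eif5, was at 8.18 FPKM in the heme library, 9.55 and 9.23 FPKM under induction, and 8.49 and 13.9 FPKM in controls. The heme library was below both controls in these 3 rows, and the induction and control libraries overlapped.

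Among microRNA rows Mir6236 was the highest, at 122 FPKM in the heme library, 127 and 72.2 FPKM under induction, and 118 and 135 FPKM in controls. Induction replicate 2 stood alone below the other 4 libraries, and the log2 fold change for induction was -0.39 ± 0.3 (adjusted p = 0.938). Mir703 was at 20.8 FPKM in the heme library, 24.8 and 23.3 FPKM under induction, and 17.5 and 20.6 FPKM in controls. Both induction libraries lay above both controls, with a log2 fold change of 0.32 ± 0.15 (adjusted p = 0.938). Mir703 shares 31 of its 80 runs of 30 bases with the elongation factor gene Eef1a1, so reads of that gene may be counted there.

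Mir5133, in an exon of Glce, was at 15.7 FPKM in the heme library, 14.5 and 11.1 FPKM under induction, and 11.2 and 12.7 FPKM in controls. Its heme value was above both controls, with a log2 fold change of 0.37 ± 0.28 (adjusted p = 0.978). Mir5125, in an intron of Srrm2, was at 15.99 FPKM in the heme library, 13.6 and 10.4 FPKM under induction, and 11.2 and 13.01 FPKM in controls. Mir3091, in an intron of Rps21, was at 10.6 FPKM in the heme library, 14.95 and 11.9 FPKM under induction, and 12.5 and 12.6 FPKM in controls. Heme lay above both controls for Mir5125 and below both for Mir3091, and induction overlapped control for these 3.

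Mir8114, which overlaps an exon of the glutamine synthetase gene Glul by 93 of its 111 bases, switched between 2 levels. It was at 0.0878 FPKM in the heme library, 22.1 and 0.112 FPKM under induction, and 20.8 and 17.1 FPKM in controls. The low libraries were heme and induction replicate 2, so the induction replicates differed by more than induction from control. The log2 fold change for heme was -4.19 ± 1.9 (adjusted p = 0.978). Mir8112, which overlaps Krcc1 by 125 of 131 bases, was at 0.151 FPKM in the heme library, 6.25 and 0.0156 FPKM under induction, and 0.0664 and 4.62 FPKM in controls. It was above 1 FPKM in induction replicate 1 and control replicate 2. The other Krcc1 row of the locus was high in the same libraries, at 6.49 FPKM in the heme library, 23.9 and 6.95 FPKM under induction, and 6.83 and 15.6 FPKM in controls.

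The 2 microRNA hosts showed no separation of induction from control. The Mir22hg transcript ENSMUST00000149940 was at 5.23 FPKM in the heme library, 7.26 and 4.42 FPKM under induction, and 6.05 and 8.84 FPKM in controls. ENSMUST00000134345 was at 6.70 FPKM in the heme library, 6.02 and 3.72 FPKM under induction, and 4.45 and 6.90 FPKM in controls. Induction and control overlapped in both, with log2 fold changes for induction of -0.32 ± 0.42 and -0.19 ± 0.45 (adjusted p = 0.939 and 0.977). For heme, where the library lay below both controls, ENSMUST00000149940 had a log2 fold change of -0.42 ± 0.52. With 1 library left out, it ranged from -0.66 (without control replicate 1) to -0.18 (without control replicate 2) for heme, and from -0.62 to -0.01 (without induction replicate 1 and 2) for induction. Mir155hg was at 1.76 FPKM in the heme library, 1.93 and 0.0135 FPKM under induction, and 0 and 2.41 FPKM in controls. Its low libraries were induction replicate 2 and control replicate 1, and its log2 fold change for heme was 0.58 ± 1.2 (adjusted p = 0.979).

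Snhg8, the host of Snora24, had the highest summed level of the hosts, at 50.5 FPKM in the heme library, 68.6 and 55.4 FPKM under induction, and 53.7 and 55.5 FPKM in controls. The log2 fold change of the sum was 0.17 ± 0.13 for induction (adjusted p = 0.937). Its transcript ENSMUST00000196466 was at 15.8 FPKM in the heme library, 60.7 and 17.5 FPKM under induction, and 20.5 and 18.4 FPKM in controls. ENSMUST00000199645 was at 34.8 FPKM in the heme library, 7.86 and 37.8 FPKM under induction, and 33.2 and 37.1 FPKM in controls. Induction replicate 1 alone was high in the first and low in the second, where the first took 88.5% of the sum against 31.2% to 38.1% in the other 4 libraries.

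Snhg5, the host of the Snord50 snoRNAs, summed to 19.3 FPKM in the heme library, 28.5 and 18.3 FPKM under induction, and 13.3 and 21.2 FPKM in controls. ENSMUST00000183030 was at 5.48 FPKM in the heme library, 9.80 and 0.303 FPKM under induction, and 0.206 and 8.74 FPKM in controls. As with Mir155hg, induction replicate 2 and control replicate 1 were the low libraries. ENSMUST00000182232 was at 5.58 FPKM in the heme library, 8.45 and 8.90 FPKM under induction, and 6.96 and 4.83 FPKM in controls. ENSMUST00000190033 was at 8.27 FPKM in the heme library, 10.2 and 9.10 FPKM under induction, and 6.13 and 7.65 FPKM in controls. Both induction libraries lay above both controls in these 2 rows. Snhg20 was at 13.3 FPKM in the heme library, 14.8 and 5.55 FPKM under induction, and 5.81 and 14.96 FPKM in controls, with the same 2 low libraries.

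Snhg1, the host of Snord22 and neighbouring C/D snoRNAs, summed to 35.5 FPKM in the heme library, 39.6 and 37.1 FPKM under induction, and 35.3 and 45.7 FPKM in controls. Its main transcript ENSMUST00000206155 was at 22.1 FPKM in the heme library, 27.1 and 27.2 FPKM under induction, and 23.8 and 31.0 FPKM in controls. ENSMUST00000205909 was at 6.49 FPKM in the heme library, 5.96 and 2.81 FPKM under induction, and 5.88 and 4.36 FPKM in controls. In both, the induction and control libraries overlapped. ENSMUST00000206113 was at 3.39 FPKM in the heme library, 4.69 and 2.98 FPKM under induction, and 3.55 and 6.05 FPKM in controls. ENSMUST00000205852 was at 3.54 FPKM in the heme library, 1.77 and 4.08 FPKM under induction, and 2.06 and 4.30 FPKM in controls. These also overlapped.

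Snhg6, the host of Snord87, was the steadiest sum together with Snhg4. It was at 29.1 FPKM in the heme library, 28.1 and 27.7 FPKM under induction, and 27.3 and 31.2 FPKM in controls. Its transcript ENSMUST00000182580 was at 13.1 FPKM in the heme library, 10.9 and 12.6 FPKM under induction, and 12.8 and 11.2 FPKM in controls. ENSMUST00000182819 was at 7.92 FPKM in the heme library, 9.81 and 7.90 FPKM under induction, and 7.20 and 9.60 FPKM in controls. The induction and control libraries overlapped in both rows. The third, ENSMUST00000182742, was at 8.05 FPKM in the heme library, 7.43 and 7.20 FPKM under induction, and 7.22 and 10.5 FPKM in controls, and overlapped too.

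Snhg4 shares its locus with rows of the nuclear matrix gene Matr3 and summed to 27.5 FPKM in the heme library, 29.95 and 32.9 FPKM under induction, and 29.99 and 30.8 FPKM in controls. The log2 fold change of the sum was -0.14 ± 0.12 for heme (adjusted p = 0.984). Its transcript ENSMUST00000181664 was at 19.9 FPKM in the heme library, 22.1 and 20.4 FPKM under induction, and 18.9 and 19.1 FPKM in controls, with both induction libraries above both controls. ENSMUST00000185650 was at 0.118 FPKM in the heme library, 0.0364 and 5.89 FPKM under induction, and 5.06 and 0.778 FPKM in controls. Here induction replicate 2 and control replicate 1 were the high libraries. ENSMUST00000189164 was at 7.46 FPKM in the heme library, 7.78 and 6.69 FPKM under induction, and 6.01 and 10.9 FPKM in controls, which overlap.

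Snhg12 and the H/ACA snoRNA Snora61 share a locus. Its transcript ENSMUST00000144705 was at 2.11 FPKM in the heme library, 5.21 and 2.46 FPKM under induction, and 1.74 and 2.04 FPKM in controls. ENSMUST00000126380 was at 3.16 FPKM in the heme library, 4.06 and 2.41 FPKM under induction, and 0.611 and 4.69 FPKM in controls. Induction lay above control in the first and overlapped it in the second. Snora61 was at 7.66 FPKM in the heme library, 11.3 and 9.24 FPKM under induction, and 7.16 and 9.22 FPKM in controls, both induction libraries being above the controls by a narrow margin. The locus sum had a log2 fold change of 0.44 ± 0.31 for induction (adjusted p = 0.935). The locus of Hspa8, a heat shock cognate chaperone, and Snord14e summed to 855 FPKM in the heme library, 1002 and 964 FPKM under induction, and 1014 and 1113 FPKM in controls. The heme library was the lowest there, with a log2 fold change of -0.31 ± 0.1 (adjusted p = 0.998).

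Genes that make, process or host these RNAs were read from lists of 6 groups. Of 24 transcripts tested for microRNA processing, 25 for snoRNP and scaRNP proteins, 49 for spliceosomal snRNP core proteins, 25 for nonsense-mediated decay and 21 for known microRNA hosts, 0 passed in either comparison. In these 5 lists together, 7 of 144 had an unadjusted p under 0.05 for heme and 6 for induction, which is 4.86% and 4.17% against 4.95% and 4.98% of all transcripts. The split was uneven for induction, with 5 of the 6 among the 25 nonsense-mediated decay transcripts. They included Magohb ENSMUST00000172883 (log2 fold change 1.79 ± 0.44, limma, adjusted p = 0.711). Rbm8a transcripts ENSMUST00000198027 (2.09 ± 0.57, adjusted p = 0.796) and ENSMUST00000200647 (-1.73 ± 0.54, adjusted p = 0.868) went opposite ways. Median log2 fold changes for heme were -0.02, 0.03, -0.11, -0.07 and 0.08 in that order, against 0.0 over all transcripts, and for induction 0.02, 0.14, 0.02, 0.02 and 0.0, against 0.02. The microRNA processing nuclease Drosha (ENSMUST00000090292) was at 26.1 FPKM in the heme library, 33.7 and 33.2 FPKM under induction, and 34.4 and 36.7 FPKM in controls, a log2 fold change for heme of -0.43 ± 0.13 (adjusted p = 0.879). Ncbp2 (ENSMUST00000023460), a cap-binding subunit, was at 42.8 FPKM in the heme library, 17.8 and 15.5 FPKM under induction, and 34.7 and 36.2 FPKM in controls. This transcript was low in the induction libraries only, at a log2 fold change of -1.05 ± 0.13 (adjusted p = 0.347). A second Ncbp2 transcript, ENSMUST00000126215, was low in the heme library only, at 1.57 FPKM, with 12.7 and 31.2 FPKM under induction and 19.5 and 16.1 FPKM in controls. Its log2 fold change for heme was -2.87 ± 0.59 (adjusted p = 0.559).

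Among 123 tested transcripts of other known snoRNA host genes, 2 fell with heme (1.63%, against 0.0728% of all transcripts) and 0 passed for induction (against 0.00728%). These were 1 transcript each of Rpl7a and Rpl3, both large-subunit ribosomal protein genes. Rpl7a ENSMUST00000143678 was at 1.16 FPKM in the heme library, 79.4 and 79.2 FPKM under induction, and 84.8 and 77.3 FPKM in controls, a log2 fold change for heme of -5.25 ± 0.13 (limma, adjusted p = 0.0121). Rpl3 ENSMUST00000081650 was at 57.1 FPKM in the heme library, 407 and 426 FPKM under induction, and 267 and 285 FPKM in controls, a log2 fold change for heme of -2.25 ± 0.09 (adjusted p = 0.0245). Both calls were lost with a replicate block (adjusted p = 0.0599 for Rpl7a and 0.124 for Rpl3) and with any 1 control or induction library left out (0.335 to 0.489 for Rpl7a and 0.335 to 0.508 for Rpl3), and that of Rpl3 also without a filter (0.0591). Another Rpl3 transcript, ENSMUST00000187578, was high in the same heme library, at 210.9 FPKM against 103.7 and 71.2 FPKM in controls. Under induction it was low, at 5.15 and 9.48 FPKM (log2 fold change -3.44 ± 0.34, limma, adjusted p = 0.305). There ENSMUST00000081650 lay above both controls, so the Rpl3 transcripts differed in opposite directions in both comparisons. At an unadjusted p under 0.05 there were 5 for heme and 6 for induction, 4.07% and 4.88% of the 123, against 4.95% and 4.98% of all transcripts. As sums over the gene, 0 of 45 passed in either comparison. Snord83b, in an intron of Rpl3, was at 5.98 FPKM in the heme library, 5.59 and 6.504 FPKM under induction, and 3.22 and 9.47 FPKM in controls, so the heme library lay between the controls.

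The authors' deposited table for heme, with its p-values adjusted here, passes 2 of 69 members, where 7.24% of all transcripts pass and 3.75% pass as lower, both lower: Mir8114 (log2 fold change -6.64, adjusted p = 7.5e-06) and Snhg3 ENSMUST00000151374 (-3.29, adjusted p = 0.0162). The authors' deposited table for induction passes 4, 2 higher and 2 lower, where 7.2% pass, 3.55% as higher and 3.65% as lower. In the authors' deposited table, Snhg8 ENSMUST00000196466 (1.54) and Snhg5 ENSMUST00000183030 (4.89) are higher and Snhg8 ENSMUST00000199645 (-2.08) and Snhg3 ENSMUST00000151374 (-5.23) lower. Fold changes in the authors' deposited tables lie within 0.1 log2 units of the ratio of the replicate 1 libraries in 53 of 57 and 54 of 56 members above 0.5 FPKM in both. They thus follow 1 library per group. For the Snhg8 and Snhg5 transcripts the second induction library was close to control replicate 1, and for Snhg3 ENSMUST00000151374 both induction libraries were low.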

How the data were processed

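RNA was sequenced from C17.2 cells in 3 groups of 2 replicates. The submitters' processing notes name HISAT2, StringTie and edgeR, without versions, and the GRCm38 (mm10) build. For every assembled transcript of each library the authors deposited an FPKM value and a mean coverage. Their 2 comparison tables, as deposited, hold a log2 fold change, a log2 abundance, an LR score and a p-value for each transcript. What these rest on beyond the processing notes is not stated.

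Members and lists were chosen with earlier results of these data known. From here on, depth was taken from coverage over FPKM. Limma 3.58.1 in R 4.3.3 was fitted to log2(FPKM + 1) for all rows with at least 1 FPKM in at least 2 of the 5 libraries, and again to FPKM summed by locus and by gene name. Two-sided p-values were adjusted by Benjamini-Hochberg, and the single heme library was taken to vary as much as the other libraries. This scale understates changes of low rows. FPKM carry no counts, so no count model, interval or floor is given. The steps were tested on simulated data, where many true changes were missed. For induction, simulated log2 changes of 1, 2 and 4 were called in 14.1%, 40% and 45.1% of the changed transcripts. For heme, a smaller share was called at 1 and 2. Changed transcripts were drawn only from those whose mean on the log2(FPKM + 1) scale was above that of 5 FPKM. These shares therefore do not cover lower rows such as Snora24, Snord57 and Snora41.

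Identifiers were joined to GENCODE M21 on GRCm38: 65 of 69 were found, 61 with the same coordinates. Runs of 30 bases were compared between members and all GENCODE transcripts, and 16 members share at least 1 run with a gene elsewhere. Per-library values are given for Snhg rows with a mean of at least 1 FPKM, the 5 highest rows of each small RNA class and the 2 rows per class with the smallest p in each comparison. The values of 1 H/ACA row under this rule are not reported here. Fold changes are given for the last of these, for the 2 host gene sums and the 2 multi-row loci with the smallest p, for both comparisons of Snhg3, and for up to 4 members of each list. Other values named, such as those of Mir8112, Snora70, Snord68, Snora61 and Snord83b, were chosen after they were seen. Alternatives were pseudocounts of 0.1 and 5, no filter, a mean of at least 5 FPKM, all 6 columns, the mean of both heme columns, upper quartile scaling, a replicate block and leaving out each control or induction library.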

Additional observations from a re-analysis of the deposited data

How the results depend on the processing

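No member was called by limma under any alternative, except with all 6 columns, where the heme columns count as 2 samples although they hold 1 measurement. That setting called 1 member transcript for heme, Snora24 (adjusted p = 0.0477), 1 member locus for heme and 1 for induction, both Mir8114, whose 2 induction libraries differ. It called 417 transcripts for heme and 86 for induction, and 207 and 51 loci, against 10 and 1 transcripts and 3 and 1 loci. Without a filter, 6 transcripts were called for heme and 0 for induction, and 0 loci for induction. With pseudocounts of 0.1 or 5, 0 loci were called for induction. Leaving out any 1 library, controls or induction, gave 0 to 0 calls of transcripts or loci in both comparisons (1 residual degree of freedom).

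Deviations of same-numbered replicates had a correlation of -0.015 over all transcripts tested, so no pairing by number was seen across them. Pairing limited to some rows was not tested. With a replicate block, 0 transcripts were called in either comparison, and 2 loci for induction.

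Of 28 fold changes given by the naming rule, the Snhg4 sum for heme (-0.14) changed sign with all 6 columns (0.06) and with the mean of both heme columns (0.08). With 1 library left out, Mir22hg ENSMUST00000134345 for induction ranged from -0.48 to 0.1, Mir155hg for heme from -0.31 to 1.47 (without control replicate 1 and 2), and Mir6236 for induction from -0.8 to 0.01. The Snhg3 sum for induction stayed between -1.55 and -1.16 in all settings, with adjusted p from 0.0966 to 0.93. Over all 148 values of named members, their loci and sums, 176 of 1738 alternatives changed the sign, 171 of them where the size was below 0.5. The cause was not tested. Depth limits most the 10 rows with fewer than 50 sequenced bases in a library.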
